A study of Mus musculus with 10 samples.

Results

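Ly6 proteins are small, cysteine-rich surface proteins of the Ly6/uPAR family, most of them held on the outer membrane by a glycolipid anchor, and antibodies to them are the usual tools for sorting mouse leukocytes. Ly6g marks neutrophils, Ly6c2 classical monocytes and other myeloid cells, Ly6c1 vascular endothelium, and Ly6a (Sca-1) endothelium, progenitors and interferon-exposed leukocytes. Ly6i is a less studied relative described on myeloid cells, and Ly6g6f is a platelet membrane protein encoded in the major histocompatibility complex. The 6 genes described here (Ly6g, Ly6c1, Ly6c2, Ly6a, Ly6i and Ly6g6f) were chosen by name out of 28185 genes measured.

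The series holds 10 RNA-seq libraries of cells that bound anti-Ly6G magnetic beads, so the protein of one of these genes selected the cells. All mice were male C57Bl/6J animals of 12 to 16 weeks with a ligated left coronary artery, and cells were collected at day 3 from the digested infarcted left ventricle or from blood. Mice either had no cell therapy or had received syngeneic bone marrow mesenchymal stromal cells (MSC) under the skin at 3 sites, 1000000 cells a site, at the time of ligation. This gave the groups MI (n = 3, libraries 13, 19 and 20), MI+MSC (n = 3, libraries 15, 17 and 18), Blood (n = 2, libraries 21 and 22) and Blood+MSC (n = 2, libraries 23 and 24). There was no sham-operated group. The labels name no batch other than the group itself, so that batch and group cannot be told apart. They also do not tie heart libraries to blood libraries of the same animal.

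Values below are normalized counts, that is, reads of a gene divided by a size factor of the library. Total reads ran from 148594 to 8602711, and 2 shallow libraries are the least precise: 1 read was worth 8.40 normalized counts for MI 13 and 7.07 for Blood 21, and from 0.168 to 2.30 elsewhere. The labelled cell type was checked against its markers. Summed over 14 genes, neutrophil markers reached 45635 to 55147 in Blood, 17759 to 24679 in Blood+MSC, 3263 to 14196 in MI+MSC and 2841 to 8581 in MI. The cardiac libraries also held 8 cardiomyocyte markers at a sum of 3138 to 24250, against 14.3 to 63.6 in blood, and 12 endothelial markers at 734 to 3191. Markers of cells other than neutrophils were thus present in the ventricle, and they were present in blood too. The 10 monocyte markers summed to 5991 to 7432 in blood and 2210 to 5621 in the ventricle. For 10 macrophage markers the sums were 6047 to 10301 and 3042 to 14607, and for 7 erythroid markers 488 to 9559 and 52.0 to 311. The endothelial sum in blood was 82.3 to 1653, highest in Blood 21, where Pecam1 was at 586 but Cdh5 had 1 read and Kdr 0. In bulk RNA fewer cells of a type and less RNA per cell cannot be told apart.

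Ly6g (ENSMUSG00000022582, chr15:75027089-75030982, plus strand, GRCm39) encodes the protein bound by the beads. Blood held it at 198 and 645 normalized counts and Blood+MSC at 57.0 and 41.2. Values were 16.8, 26.9 and 18.01 in the MI libraries, then 6.76, 13.8 and 4.75 in those of MI+MSC. The 4 groups thus ordered Blood, Blood+MSC, MI, MI+MSC, and no library of one group overlapped with a library of the next. The share of all genes with 4 separate groups was not counted. Cardiac and blood libraries were apart in 33.1% of the genes tested, and MI+MSC lay below MI in 9.6%. The cardiac values rested on few reads, 2 in MI 13, 28 in MI 19 and 35 in MI 20, and 10, 6 and 7 in the MI+MSC libraries. A read of MI 13 was worth 8.40 normalized counts, so its place above the MI+MSC libraries is imprecise.

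Ly6c1 (ENSMUSG00000079018, chr15:74915847-74920686, minus strand) was measured almost wholly in the ventricle. The MI libraries held 294, 321 and 313 normalized counts, a narrow range, and the MI+MSC libraries 39.9, 101 and 78.6. In blood it had 0 reads in Blood 21, 5 in Blood 22, 0 in Blood+MSC 23 and 8 in Blood+MSC 24, or 0, 3.25, 0 and 1.35 normalized counts. The 3 MI libraries lay above all 3 MI+MSC libraries, as in 9.6% of all genes tested. Every cardiac library lay above every blood library, and 33.1% of genes had these tissues apart in either direction.

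Ly6c2 (ENSMUSG00000022584, chr15:74980003-74988467, minus strand), the neighbouring paralogue, had no such split. The MI libraries were at 50.4, 337 and 163 and the MI+MSC libraries at 120, 89.5 and 136. Blood was at 219 and 398, Blood+MSC at 71.7 and 83.3. The MI values overlapped with those of each other group, while Blood lay above MI+MSC and MI+MSC above Blood+MSC. The share of all genes with these groups apart was not counted.

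Ly6a (ENSMUSG00000075602, chr15:74863840-74869880, minus strand) had MI values of 261, 346 and 309 and MI+MSC values of 126, 112 and 134. The blood values were 84.8 and 114 without MSC, 34.9 and 54.0 with MSC. MI was separate from every other group and Blood+MSC lay lowest, while MI+MSC and Blood overlapped. MI+MSC lay below MI in 9.6% of all genes tested, and the share for the other separations was not counted. Unlike Ly6c1, Ly6a was therefore present in blood, with 12 to 321 reads a library.

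Ly6i (ENSMUSG00000022586, chr15:74851383-74855279, minus strand) was low throughout. MI libraries had 0, 21.1 and 10.3 normalized counts, MI+MSC libraries 29.7, 27.6 and 17.6, Blood 28.3 and 22.7, and Blood+MSC 15.8 and 19.9. The 0 belongs to MI 13, where 3 reads would already amount to 25.2 normalized counts. Levels such as those of MI 19 and MI 20 would there come to fewer than 3 reads, so the 0 is imprecise.

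Ly6g6f (ENSMUSG00000034923, chr17:35297631-35304621, minus strand) is the member outside the chromosome 15 cluster. It is grouped with the others here by its name, and its coding sequence has 903 bases against 396 to 405 for theirs. Blood 21 held 141 normalized counts and Blood 22 held 3.90, the Blood+MSC libraries 1.31 and 0.673, the MI libraries 0, 0 and 0.515 and the MI+MSC libraries 1.35, 0 and 2.03. It was thus a gene of 1 library, with 20 reads in Blood 21 and 0 to 6 in each of the others, and it passed the filter on low values (a mean of at least 10 over the 10 libraries) only through Blood 21. Its comparisons with Blood therefore rest on the library that admitted it, and its calls are given as values that support nothing. The other 5 members passed whichever group was left out of the mean.

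**Figure D1:**
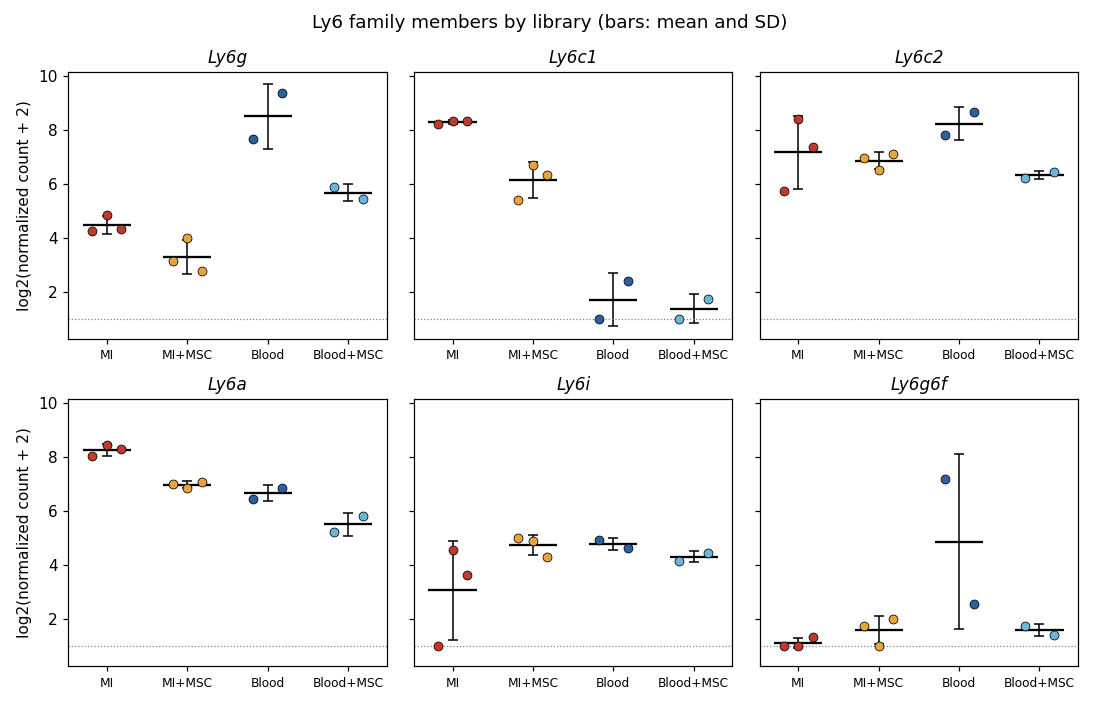
Level of each Ly6 member, as log2(normalized count + 2), in each library (points) of MI, MI+MSC, Blood and Blood+MSC, with the group mean and SD as bars; the dotted line is a count of 0. Ly6c1 is near the dotted line in all 4 blood libraries and high in all 6 cardiac ones, Ly6g has the reverse order, and the spread of Ly6g6f in Blood comes from 1 of 2 libraries.

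Compared per kilobase of transcript, as normalized counts per kb, the order of the members differed between tissues. The canonical transcripts gave the lengths, 3706 bases for Ly6a, 3001 for Ly6g6f and 837 to 1156 for the others, so the place of Ly6a depends on this choice. Before division by length, Ly6a was at 305 and Ly6c1 at 309 in MI. In MI+MSC Ly6a was at 124 and Ly6c2 at 115. In MI the order was Ly6c1 at 284 ± 12.7 (SD, n = 3), Ly6c2 at 219 ± 173, Ly6a at 82.3 ± 11.6, Ly6g at 21.7 ± 5.82, Ly6i at 9.07 ± 9.15 and Ly6g6f at 0.0572 ± 0.0990. Neighbours in this order did not differ beyond their spread for Ly6c1 and Ly6c2, Ly6c2 and Ly6a, Ly6g and Ly6i, or Ly6i and Ly6g6f. In MI+MSC Ly6c2 led at 138 ± 28.4 (SD, n = 3), followed by Ly6c1 at 67.3 ± 28.4, Ly6a at 33.4 ± 2.87, Ly6i at 21.6 ± 5.58 and Ly6g at 8.89 ± 5.0, each apart from the next by more than 1 SD of both. In Blood, Ly6g at 444 ± 333 (SD, n = 2) and Ly6c2 at 369 ± 151 came first and were within each other's spread, ahead of Ly6a at 26.9 ± 5.64, Ly6g6f at 24.2 ± 32.4 and Ly6i at 22.1 ± 3.38, which were not apart from one another. In Blood+MSC the order was Ly6c2 at 92.6 ± 9.78 (SD, n = 2), Ly6g at 51.8 ± 11.8, Ly6i at 15.4 ± 2.50 and Ly6a at 12 ± 3.64, the last pair being within 1 SD. The transcript for the bead antigen was thus the first of the 6 members per kb in Blood (with Ly6c2 within its spread), the second in Blood+MSC, the fourth in MI and the fifth in MI+MSC.

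Ly6c1 and Ly6c2 are near-identical in their coding sequence, and how far reads can be assigned to one or the other bears on the values of both. Their coding sequences were 97.7% identical in GENCODE (387 of 396 aligned bases), against 77.0% to 86.4% for the other pairs of the chromosome 15 members and 28.0% to 29.3% for pairs with Ly6g6f. The 60 coding bases that hold 6 of the 9 differences are shown because they hold most of the coding differences. They lie in 1 exon, at coding bases 6 to 65, at chr15:74920296-74920355 for Ly6c1 and chr15:74983452-74983511 for Ly6c2 (GRCm39, minus strand, capitals mark the differing bases).
Ly6c1: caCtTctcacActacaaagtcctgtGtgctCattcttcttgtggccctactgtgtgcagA
Ly6c2: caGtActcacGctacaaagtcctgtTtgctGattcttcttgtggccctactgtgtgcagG
Of all 100-base stretches of the transcript, 15.1% of those of Ly6c1 and 15.4% of those of Ly6c2 also occurred in another gene, and at 150 bases 4.15% and 5.67%. At 50 bases the shares were higher, 37.5% for Ly6c1 and 32.4% for Ly6c2. Ly6a shared 7.54% of its 100-base stretches with the non-coding gene Gm28068, while Ly6g, Ly6i and Ly6g6f shared 0% at that length. At 50 bases Ly6a shared 13.3%, Ly6i 5.78%, Ly6g6f 1.19% and Ly6g 0.445%. Read length and the handling of reads with several matches are not given in the sources used here, so values of Ly6c1, Ly6c2 and Ly6a are uncertain by the reads that such stretches lose or exchange.

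The promoters of the pair were less alike than their coding sequences. RefSeq held an upstream window for 4 of the 6 members (Ly6g, Ly6c1, Ly6c2 and Ly6g6f). The best-aligned windows of Ly6c1 and Ly6c2 shared 164 of 228 aligned columns, or 71.9%, and are shown for comparison with the coding bases. The Ly6c1 window is chr15:75048838-75049056 and the Ly6c2 window chr15:75111997-75112221, both on the minus strand of GRCm38.p6, the build of that table. They run from base 219 to base 1 before the Ly6c1 start and from base 250 to base 26 before the Ly6c2 start. Capitals mark bases that differ or have no partner in the other window.
Ly6c1: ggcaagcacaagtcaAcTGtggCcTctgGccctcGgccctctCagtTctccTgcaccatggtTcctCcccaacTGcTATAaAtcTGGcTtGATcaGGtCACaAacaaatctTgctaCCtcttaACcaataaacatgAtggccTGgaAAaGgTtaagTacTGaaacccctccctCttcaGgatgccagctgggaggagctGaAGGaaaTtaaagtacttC
Ly6c2: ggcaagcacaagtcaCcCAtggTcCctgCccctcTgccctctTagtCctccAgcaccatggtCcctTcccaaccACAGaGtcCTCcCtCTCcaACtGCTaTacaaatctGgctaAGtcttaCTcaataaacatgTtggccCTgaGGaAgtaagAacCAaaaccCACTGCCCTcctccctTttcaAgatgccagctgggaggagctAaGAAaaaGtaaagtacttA
Both strands of the 250 bases before each start were searched for TTCNNNGAA (the STAT motif GAS, in 7.02% of 32851 promoters) and for AGATAA (bound by GATA factors, in 9.99%). Neither was found in the windows of Ly6g, Ly6c1 or Ly6c2. The Ly6g6f window, chr17:35085596-35085845 (GRCm38.p6, minus strand), held AGATAA at 2 places and no GAS motif. Both matches are on the reverse strand, printed as TTATCT in capitals. Of all promoters, 0.938% held it 2 or more times.
Ly6g6f: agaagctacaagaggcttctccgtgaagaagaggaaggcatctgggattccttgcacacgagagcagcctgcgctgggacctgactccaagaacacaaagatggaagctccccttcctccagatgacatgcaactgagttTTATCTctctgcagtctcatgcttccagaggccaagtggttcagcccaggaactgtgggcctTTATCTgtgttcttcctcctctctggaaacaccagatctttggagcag

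The difference between cells of the infarcted ventricle and of blood was the first comparison. In mice without MSC, Ly6c1 and Ly6a were higher in MI than in Blood and Ly6g was lower, while Ly6c2 and Ly6i did not pass the test. These were 3 of the 5 members that passed the filter without help from Blood 21, against 34.7% of the 11549 genes tested (21.2% higher and 13.5% lower). The test was limma on log2(normalized count + 2), with Benjamini-Hochberg adjustment over all tested genes, and a gene was called at an adjusted p under 0.05 and a log2 fold change of at least 0.5 in size. On that scale, where low genes change less than their counts do, Ly6c1 was 6.59 ± 0.50 (SE) higher (adjusted p = 1.21e-05) and Ly6a 1.60 ± 0.29 higher (adjusted p = 0.00234). Ly6g fell by 4.02 ± 0.52 (adjusted p = 0.000356), a ratio of means of 20.5 in favour of Blood. The log2 value was -3.17 without Blood 22 and -4.87 without Blood 21, and it was called in both fits. Ly6c2 was at -1.06 ± 0.61 (adjusted p = 0.192) and Ly6i at -1.72 ± 0.82 (adjusted p = 0.120). Without MI 19 both were called, Ly6c2 at -1.68 (limma adjusted p = 0.0344) and Ly6i at -2.46 (adjusted p = 0.0360). Without MI 13 they were closer to 0 and not called, Ly6c2 at -0.33 (adjusted p = 0.549) and Ly6i at -0.70 (adjusted p = 0.239), and Ly6c2 was at -0.63 without Blood 22 (adjusted p = 0.557).

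Ly6g6f was at -3.75 ± 1.26 (limma adjusted p = 0.0386), a value that rested on Blood 21, the library that admitted it to the test. Without that library it was -1.45 (adjusted p = 0.515). Blood 21 also carried the platelet markers, with a sum over 12 measured genes of 32112 against 1288 in Blood 22 and 538 to 1784 in the remaining 8 libraries. The platelet chemokine Ppbp stood at 15063 there against 283 in Blood 22, and the integrin chain Itga2b at 1420 against 151. The part of platelet RNA in the Ly6g6f value was not tested.

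In mice given MSC, Ly6c1, Ly6a and Ly6g passed and Ly6g6f did not, that is, 3 of 6 against 14.1% of all genes (8.23% higher and 5.85% lower). Ly6c1 was 4.76 ± 0.50 (SE) higher in MI+MSC than in Blood+MSC (limma adjusted p = 0.000310) and Ly6a 1.47 ± 0.29 higher (adjusted p = 0.00768). Ly6g fell by 2.37 ± 0.52 (adjusted p = 0.0133), a ratio of means of 5.83 in favour of blood. The Ly6g call was lost without MI+MSC 18 (-2.10, adjusted p = 0.0537), without Blood+MSC 23 (-2.15, adjusted p = 0.158) and without Blood+MSC 24 (-2.60, adjusted p = 0.0646), and the Ly6a call without Blood+MSC 23 (1.17, adjusted p = 0.150). Ly6c2 at 0.55, Ly6i at 0.42 and Ly6g6f at 0.01 were not called (adjusted p = 0.572, 0.762 and 0.996).

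**Figure D2:**
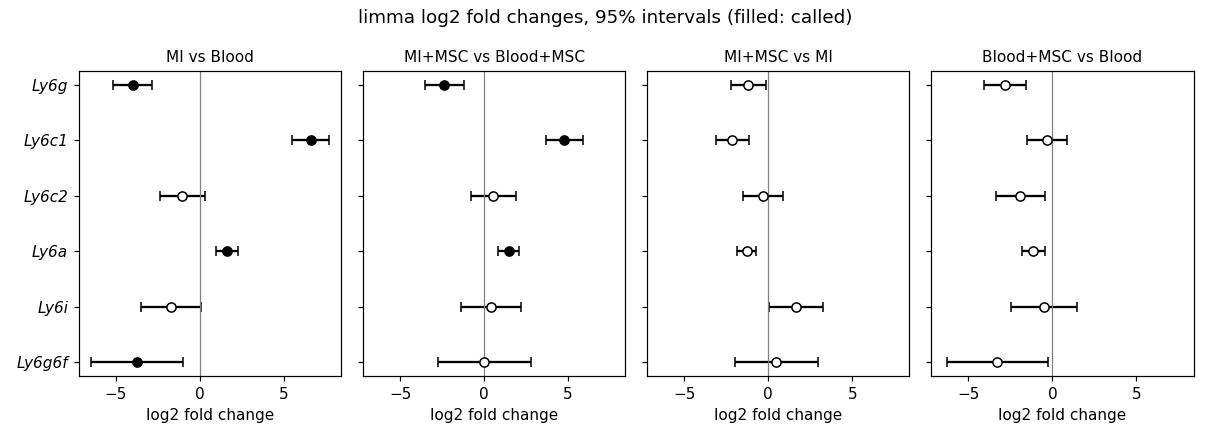
Log2 fold change of each member (points) with its 95% interval (bars) from limma in 4 comparisons, on the log2(normalized count + 2) scale; filled points were called. Between tissues Ly6c1 and Ly6a lie to the right of 0 and Ly6g to the left, with and without MSC, and no member was called between mice with and without MSC.

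Over both treatments, the 6 cardiac libraries were also compared with the 4 blood libraries by a two-sided exact permutation test, in which the smallest p possible is 0.00952. Ly6g differed by -3.20 on the log2(normalized count + 2) scale and Ly6c1 by 5.68, both at an exact permutation p = 0.00952 (6 tests, not adjusted), with cardiac and blood libraries apart in each case, as in 33.1% of all genes tested. Ly6a differed by 1.53 (exact permutation p = 0.0190), with overlap between MI+MSC and Blood, and no longer passed without MI 13 and Blood 21 (1.57, exact permutation p = 0.0714). Ly6c2 at -0.26 (p = 0.714), Ly6i at -0.65 (p = 0.514) and Ly6g6f at -1.87 (p = 0.0667) did not pass the exact permutation test. These libraries are the same as those of the fits above, so the tests are not separate evidence.

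The share of Ly6c2 in the reads of Ly6c1 and Ly6c2 together does not depend on how libraries were scaled. The MI libraries had 14.6%, 51.2% and 34.2%, the MI+MSC libraries 75.1%, 47.0% and 63.4%. Blood had 100% and 99.2%, Blood+MSC 100% and 98.4%. The lowest exact binomial 95% limit in blood was 88.8%, in Blood 21 with 31 reads of both genes, and the highest limit in the ventricle was 80.5%, in MI+MSC 15, so the tissues were apart also after counting error. The mean was 47.6% in 6 cardiac and 99.4% in 4 blood libraries, a difference of -51.8 percentage points (two-sided exact permutation p = 0.00952, the smallest possible). Within the ventricle the mean was 33.4% ± 18.3 in MI and 61.8% ± 14.1 in MI+MSC (SD, n = 3 each), 28.5 points apart with overlapping libraries (exact permutation p = 0.2, where 3 against 3 cannot go below 0.1). Intervals cover counting error only.

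**Figure D3:**
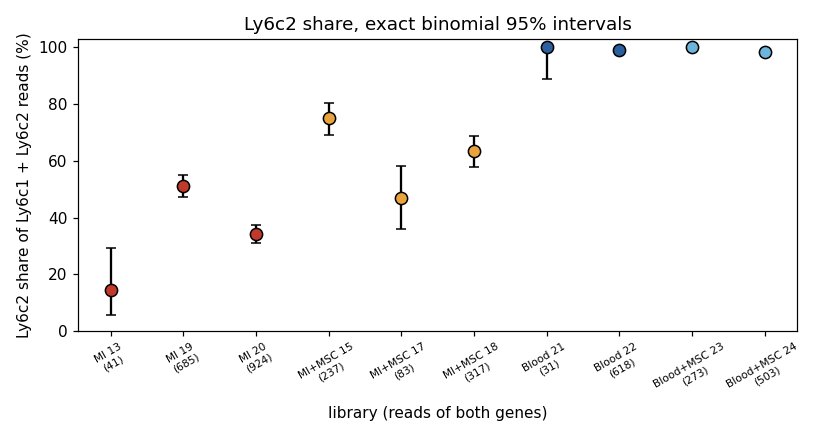
Share of Ly6c2 (y axis, %) in the reads of Ly6c1 and Ly6c2 in each library (x axis, with the number of reads of both genes in brackets), with exact binomial 95% intervals as bars and colour by group. The 4 blood libraries lie between 98.4% and 100%, and the 6 cardiac libraries between 14.6% and 75.1%.

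The comparison of mice with and without MSC asked whether cells given under the skin altered the bead-bound cells of the ventricle. No member passed, and neither did any other gene, a share of 0% of 11549 genes by limma, with 925 genes at an unadjusted p under 0.05 and a count of 0 also by edgeR. DESeq2 on the recovered reads called 79 genes (0.684%), among them Ly6c1 at -2.15 (adjusted p = 0.000832) and Ly6a at -1.35 (adjusted p = 0.00235). By limma Ly6c1 was at -2.15 ± 0.45 (SE, adjusted p = 0.340, 95% interval -3.13 to -1.16), a ratio of means of 4.23 between MI and MI+MSC. Ly6a was at -1.28 ± 0.26 (adjusted p = 0.340, interval -1.85 to -0.71), a ratio of 2.46, and Ly6g at -1.18 ± 0.47 (adjusted p = 0.606), a ratio of 2.44. For these 3 members every MI+MSC library lay below every MI library, as in 9.6% of all genes tested. Ly6c2 at -0.31 (interval -1.49 to 0.88), Ly6i at 1.67 (interval 0.07 to 3.28) and Ly6g6f at 0.48 (interval -1.98 to 2.94) were not called either, with limma adjusted p = 0.856, 0.618 and 0.897. The Ly6i value was 0.65 without MI 13, where it had 0 reads, and 2.41 without MI 19.

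Marker lists of several cell types lay to one side of 0 in this comparison, as Ly6c1 and Ly6a did. The summed endothelial level was 2867 to 3191 in MI and 734 to 1337 in MI+MSC, and all 11 tested markers had a negative log2 fold change, with a median of -1.60 against -0.01 over all genes tested and 0 of 11 called. The defining marker Cdh5 stood at 513, 478 and 510 in MI and at 120, 158 and 233 in MI+MSC. All 8 cardiomyocyte markers (median -1.43) and all 7 erythroid markers (median -0.85) were negative as well, and 8 of 10 macrophage markers were positive (median 0.83), with none of them called. Of the neutrophil markers, 8 of 14 were negative (median -0.18). The part of these cell types in the Ly6c1 and Ly6a values was not tested.

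In blood no member and no gene passed between Blood+MSC and Blood (0% of 11549 genes by limma and by edgeR, with 848 at an unadjusted p under 0.05 by limma). DESeq2 called 179 genes (1.55%), among them Ly6g at -3.16 (adjusted p = 0.000127), Ly6c2 at -2.05 (adjusted p = 0.0255) and Ly6a at -1.26 (adjusted p = 0.0461). It also called Ly6g6f, at -6.24 (adjusted p = 0.00169), which had entered the test through Blood 21 alone. By limma Ly6g was at -2.83 ± 0.57 (SE, adjusted p = 0.672, interval -4.09 to -1.58), with means 8.58 times apart. Ly6c2 was at -1.91 ± 0.66, Ly6a at -1.14 ± 0.32 and Ly6g6f at -3.29 ± 1.37 (limma adjusted p = 0.672 for each). Ly6c1 at -0.32 (adjusted p = 0.925) had 13 reads in the 4 libraries together, and Ly6i was at -0.47 (adjusted p = 0.932). Ly6g, Ly6c2, Ly6a, Ly6i and Ly6c1 were all below 0, where the median over all genes tested was 0.11. The share of all genes below 0 was not counted. Ly6c1 was above 0 without Blood 22 (0.37) or Blood+MSC 23 (0.046). Ly6g6f was below 0 too, but against the library that admitted it to the test. Some marker lists lay below 0 as well. Negative were 12 of 12 platelet markers (median -3.49) and 12 of 12 interferon-stimulated genes (median -1.22). So were 12 of 14 neutrophil markers (median -0.85). Other lists lay above 0. Positive were 7 of 7 erythroid (median 1.53), 3 of 4 lymphocyte (median 1.16) and 7 of 8 cardiomyocyte markers (median 0.325). Of the rest, 5 of 10 monocyte, 6 of 10 macrophage, 7 of 11 endothelial and 5 of 7 fibroblast markers were negative. No marker was called. Blood 21 had a platelet sum of 32112, Blood 22 one of 1288 and the Blood+MSC libraries 665 to 788. The part of these lists in the members' values was not tested. Without Blood 22, the Blood group was Blood 21 alone, which the fit then assumes to vary like the other groups, and limma called Ly6g at -1.98 (adjusted p = 0.0422) and Ly6g6f at -5.59 (adjusted p = 0.0245) along with 1506 genes in all. Without Blood 21, Ly6g6f was at -0.99.

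Whether the MSC difference itself differed between ventricle and blood was tested as an interaction, in which 0% of genes were called by limma, 838 of them at an unadjusted p under 0.05, and 0 by edgeR, and 20 (0.173%) by DESeq2. For the members the interaction was 1.65 for Ly6g, -1.82 for Ly6c1, 1.60 for Ly6c2, -0.14 for Ly6a, 2.15 for Ly6i and 3.76 for Ly6g6f (limma adjusted p = 0.911 for Ly6a and 0.630 for the others). The MSC difference of Ly6a was -1.28 in the ventricle and -1.14 in blood, and for no member was a difference between tissues shown with all libraries. Without Blood 22 the interaction was called for Ly6c1 at -2.52 (limma adjusted p = 0.0376) and Ly6g6f at 6.07 (adjusted p = 0.0457), along with 1095 genes in all.

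Members were also set against a list of markers of cells or responses they are known from, as the member's log2(normalized count + 2) minus the mean of the list on that scale, in 6 cardiac against 4 blood libraries. For Ly6g against 14 neutrophil markers the difference between tissues was -0.36 (exact permutation p = 0.533), and the neutrophil list was itself lower in the ventricle. For Ly6c1 against the endothelial list it was 1.71 (two-sided exact permutation p = 0.00952, 6 tests, not adjusted), with every cardiac library above every blood library. With 0, 5, 0 and 8 reads of Ly6c1 in blood, its blood values were at or near the floor and depended on the pseudocount, so the size of this difference is not a measured ratio. For Ly6a against the same list it was -2.43 (exact permutation p = 0.00952), again without overlap, in the opposite direction. Ly6a was 0.30 to 1.38 above the list mean in the ventricle and 2.64 to 3.95 above it in blood. The endothelial sum was 82.3 to 142 in 3 blood libraries and 1653 in Blood 21, with 6 of its 12 genes at 0 there. Pecam1 alone was at 586 in Blood 21, where Cdh5 had 1 read, so that sum is not an even rise of the list. Blood 21 also carried the platelet markers, and the part of other cell types in the list was not tested. For Ly6c2 against monocyte markers the difference was -0.50 (exact permutation p = 0.381), for Ly6i against interferon-stimulated genes -0.70 (p = 0.381) and for Ly6g6f against platelet markers 0.63 (p = 0.133). By this measure Blood 21, at -3.29, lay near the other 3 blood libraries (-3.095 to -2.975).

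**Figure D4:**
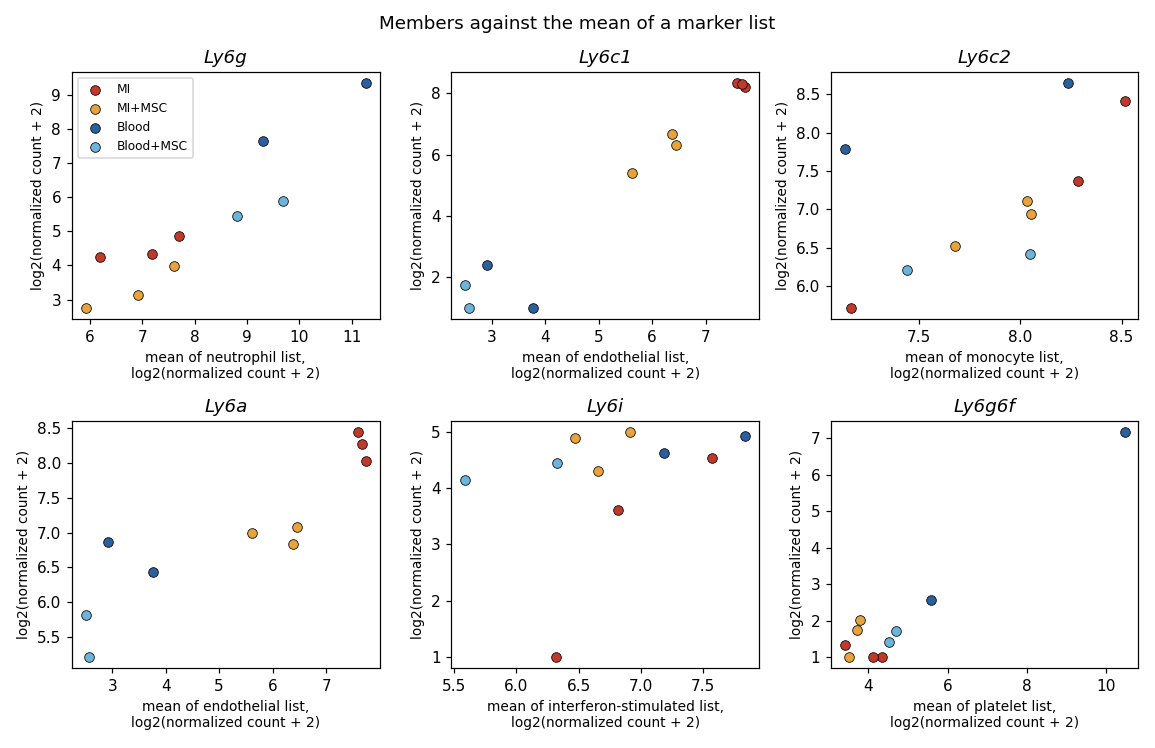
Each member (y axis) against the mean of a marker list (x axis), both as log2(normalized count + 2), in the 10 libraries coloured by group. Ly6c1 and the endothelial list are high together in the cardiac libraries, Ly6a is 5.2 to 6.9 in blood where the list is low, and Ly6g6f is set by Blood 21 at the upper right.

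The tested genes with the pattern most like each member over the 10 libraries were found by Pearson's r of log2(normalized count + 2). They are given as a description, since the points share group and depth. For Ly6g they were Asb7 (r = 0.984), Tmem40 (0.981) and Ifitm6 (0.973), and Ifitm6 stood at 558 and 1103 in Blood and at 54.9 to 181 in the ventricle. For Ly6c1 they were Emcn (r = 0.994), Sox17 (0.994) and Robo4 (0.992), all of them expressed in vascular endothelium and all at 0 in Blood 21. For Ly6c2 they were Oas1a (r = 0.908), Gapdh (0.901) and Hmox2 (0.897), a looser likeness than for any other member. For Ly6a they were Tm4sf1 (r = 0.958), Creb3l2 (0.958) and Tgtp2 (0.948). For Ly6i they were Gm5617 (r = 0.983), Mea1 (0.982) and Srek1ip1 (0.971), and for Ly6g6f Gchfr (0.990), Pttg1ip (0.981) and Gatad1 (0.978), the last set all highest in Blood 21. Among the members themselves r was 0.888 for Ly6c1 with Ly6a, -0.05 for Ly6c1 with Ly6c2 and 0.51 for Ly6g with Ly6c2.

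The rest of the family was mostly low in these cells. Of 34 Ly6/uPAR genes listed besides the 6 members, 25 were in the table and 6 passed the filter on low values. Ly6e, an interferon-induced member, held 614 to 1744 normalized counts in the ventricle and 1123 to 2466 in blood. Lypd6b passed it only through Blood, with a mean of 7.29 in the other 8 libraries. Its comparison with Blood thus rests on the values that admitted it. Of the other 5, limma called 3 between MI and Blood, against 34.7% of all genes. Gpihbp1, which carries lipoprotein lipase across capillary endothelium, was 5.57 ± 0.49 (SE) higher (adjusted p = 3.11e-05), and Lynx1, a modulator of nicotinic acetylcholine receptors, 3.32 ± 0.64 higher (adjusted p = 0.00330). Plaur, the urokinase receptor, fell by 1.31 ± 0.44 (adjusted p = 0.0393), a call that was lost without Blood 22 (-0.87, adjusted p = 0.223), MI 13 (adjusted p = 0.0943), MI 20 (adjusted p = 0.0523) or MI+MSC 15 (adjusted p = 0.0601). Lypd6b was at -2.13 ± 0.67 (limma adjusted p = 0.0304). Ly6e at -1.03 (adjusted p = 0.0924) and Cd59a, an inhibitor of complement lysis, at -0.49 (adjusted p = 0.757) were not called.

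Gpihbp1 had the tissue pattern of Ly6c1. The MI libraries held 58.8, 97.1 and 140 and the MI+MSC libraries 28.4, 43.6 and 34.6, with 0, 0, 0 and 1 reads in the 4 blood libraries. Set against 3 reads in each Blood library, taken as the floor, MI was at least 8.52-fold higher. It was also higher in MI+MSC than in Blood+MSC (4.15 on the log2 scale, limma adjusted p = 0.000602), as was Lynx1 (2.12, adjusted p = 0.0482), and these 2 were the only ones called of 6, against 14.1% of all genes. The Lynx1 call was lost without MI 19 (adjusted p = 0.0732), MI+MSC 17 (adjusted p = 0.117), MI+MSC 18 (adjusted p = 0.163), Blood+MSC 23 (1.37, limma adjusted p = 0.427) or Blood+MSC 24 (adjusted p = 0.0640). None of the 6 was called between mice with and without MSC in either tissue. Cd59a, like Ly6g6f, was high in Blood 21, at 254 against 3.90 to 31.7 in the other libraries.

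**Figure D5:**
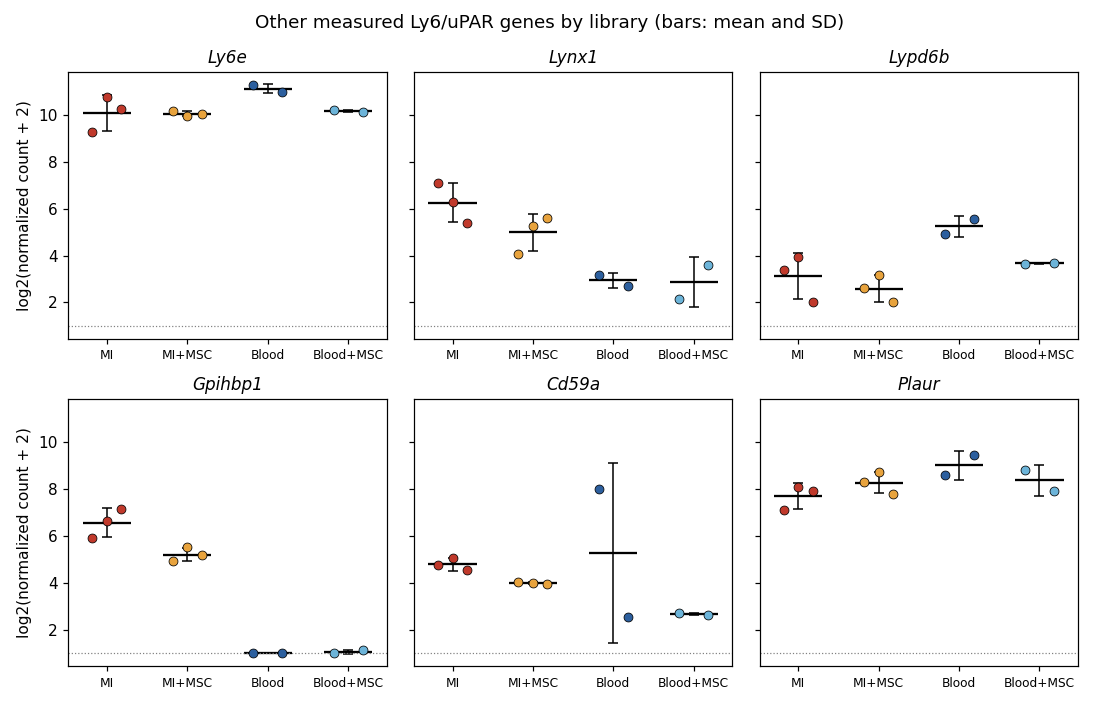
Level of the 6 tested Ly6/uPAR genes outside the members, as log2(normalized count + 2), in each library (points). Bars show the group mean and SD, and the dotted line is a count of 0. Gpihbp1 is near 0 in blood and high in the ventricle, and Cd59a has 1 high library in Blood.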

How the data were processed

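RNA-seq libraries of Ly6G bead-selected cells from infarcted mouse ventricle and blood were analysed (10 libraries in 4 groups, assigned from the labels). Per the study's methods the authors sequenced ribosomal RNA-depleted, stranded read pairs, trimmed them with Trimmomatic, removed duplicates with Picard, mapped them to GRCm39 with STAR, counted them by strand with featureCounts and left out mitochondrial reads. The deposited signal values are read counts divided by DESeq2 size factors. Both deposited tables, one of them named as raw, were equal in all 281850 values, and 100% of the values were whole multiples of 1 read (tolerance 0.001), so reads were recovered from them.

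Tests covered the 11549 genes whose normalized counts averaged 10 or more, and were made with limma 3.58.1 (intensity trend, log2(normalized count + 2), 1 mean per group over 10 libraries, Benjamini-Hochberg adjustment, R 4.3.3). Calls needed an adjusted p under 0.05 and a log2 fold change of 0.5 or more in size (the interaction only the former). edgeR 4.0.16 and DESeq2 1.42.0 on recovered reads, other pseudocounts, filters and scaling, and leaving out libraries were alternatives. The fits were also run on simulated reads with large known changes, between MI+MSC and MI and between MI and Blood. Small changes and the other comparisons were not covered by that check. Single values were compared by exact permutation (scipy 1.17.1). The study's methods take the single animal as the unit of its in vivo work, with exceptions where stated. The study's figure legend gives 3 mice a group for the sequenced heart and blood cells, while the blood groups here hold 2 libraries each. The labels do not say which mouse each library came from. The p-values therefore measure the spread between libraries, in which technical spread cannot be set apart. Transcript lengths and coordinates came from GENCODE release 39 (GRCm39, canonical transcript), promoters from RefSeq (GRCm38.p6). The 6 members, the gene and marker lists and the alternatives were chosen with earlier results of these data known. Genes named are the members, other family genes that were tested, the 3 genes most like each member, and markers beside a member's value. The comparison of Ly6g and Ly6i with their lists by MSC treatment was added after values were seen.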

Additional observations from a re-analysis of the deposited data

Results flagged for a closer look

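In 14 sets of 4 to 10 libraries (the 6 members and the Ly6c2 share, in ventricle and in blood), 1 library lay far from the others. This was MI 13 for Ly6i, with 0 reads, whose gap to the nearest cardiac library was 0.657 of the range of the 6 cardiac values. Chance gives such a gap in about 1 in 20 sets. MI 13 is the shallowest library, and 3 reads there equal 25.2 normalized counts, within the range of the other cardiac libraries (10.3 to 29.7).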

How the results depend on the processing

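No paired analysis was possible because the labels give no number shared between groups. Of the alternatives for log2 fold changes of members, 519 kept direction and call, 12 gained a call, 13 lost one and 10 changed sign. Against 0 members by limma, DESeq2 called 2 for MSC treatment in the ventricle and 4 in blood. Leaving out 1 library gave 0 to 2 called members between Blood+MSC and Blood, 1 to 3 between MI+MSC and Blood+MSC, 3 to 5 between MI and Blood and 0 to 2 in the interaction, the 2 in blood and in the interaction without Blood 22 and the 1 without Blood+MSC 23. Ly6g6f between MI+MSC and Blood+MSC was -0.031 with a pseudocount of 1 and -0.019 with TMM scaling. With 1 library left out, log2 fold changes ranged from -1.03 to 0.32 for Ly6c2 for MSC in the ventricle (above 0 without MI 19), from -1.02 to 0.37 for Ly6c1 between Blood+MSC and Blood, from -0.20 to 0.31 for Ly6g6f between MI+MSC and Blood+MSC and from -0.44 to 0.16 for Ly6a in the interaction. Between ventricle and blood, Ly6c2 ranged from -0.61 to 0.21 and Ly6g6f from -2.47 to -0.55 (exact permutation p as low as 0.0476, without MI+MSC 18). Without MI 13 and Blood 21, Ly6c2 was 0.18, Ly6i 0.054 and Ly6a 1.57 (exact permutation p = 0.0714). Ly6g6f against platelet markers was 0.81 with a pseudocount of 5 (exact permutation p = 0.0286). The cause was not tested in any of these.

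Between MI and Blood, Ly6g6f lost its call when only those groups were fitted (-3.75, limma adjusted p = 0.126), without MI 13 and Blood 21 (-1.40, adjusted p = 0.287) and in 7 of the 10 fits without 1 library. Over all genes, called genes ranged over all alternatives from 0 to 79 for MSC in the ventricle, 0 to 1506 for MSC in blood (1506 without Blood 22), 1700 to 4514 between MI and Blood, 266 to 4764 between MI+MSC and Blood+MSC and 0 to 1095 in the interaction, against 0, 0, 4008, 1627 and 0. Depth limits Ly6i, Ly6g6f, Ly6g in the ventricle and Ly6c1 in blood.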

Other observations

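Set against their lists, 2 of the 6 members separated libraries of mice with MSC from those without across both tissues. This comparison was chosen after the values were seen and has no test. Ly6g minus the mean of 14 neutrophil markers, on the log2(normalized count + 2) scale, was -1.95, -2.84 and -2.86 in MI and -1.66 and -1.92 in Blood. It was -3.79, -3.63 and -3.17 in MI+MSC and -3.80 and -3.37 in Blood+MSC. All 5 libraries with MSC lay below all 5 without it, with pseudocounts of 1 and 5 and with TMM scaling too. Set against the same list, 1 of 11549 tested genes (0.00866%), Ly6g itself, had this order and 11 (0.0952%) the opposite one. Ly6g was picked for this order, so the share is no test of it. The list mean differed between tissues, at 7.02 in MI and 6.82 in MI+MSC against 10.28 in Blood and 9.24 in Blood+MSC. A gene must share that shift to separate the libraries in either order. In the ventricle Ly6g had only 2 to 35 reads a library.

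Ly6i minus the mean of 12 interferon-stimulated genes had the opposite order. It was -5.32, -3.04 and -3.20 in MI and -2.92 and -2.56 in Blood, and -1.92, -1.59 and -2.36 in MI+MSC and -1.44 and -1.88 in Blood+MSC. All 5 libraries with MSC lay above the others under the same settings, as did those of 593 of 11549 genes (5.13%) set against this list. The Ly6i values rest on 0 to 118 reads a library, and the interferon-stimulated list was itself lower in Blood+MSC (a sum of 1386 to 2026) than in Blood (3664 to 6140). The other 4 members overlapped.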
